A study of Mus musculus with 6 samples.

Results

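The imprinted growth network is a set of genes expressed mainly from 1 parental copy that control growth before and after birth. The genes described here are H19, Meg3, Rian, Mest, Plagl1, Dlk1, Ndn, Peg3 and Grb10, and they were chosen by name from the deposited table of gene expression. Of the 9 genes, 8 had a row among the 15280 genes of the table, and Dlk1 was not analysed here. Expression was measured by RNA-Seq in 3 mammary tumors (T11035, T11640 and T9232) and in the normal, adjacent mammary glands of the same mice (M11035, M11640 and M9232), so n = 3 for each tissue. The mice were parous BK5.ATF3 transgenic females, in which the keratin 5 promoter drives the transcription factor ATF3 in basal epithelium, and tumors arose at 6 to 12 months of age. Both tissues carried the transgene, and no wild-type gland was compared. Values are CPM, the fragments on a gene scaled to the effective library size.

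At an imprinted gene, DNA methylation set in the egg or sperm marks the parental copies, and only 1 copy is transcribed in most tissues. Several imprinted genes sit together in a domain under 1 control region, where a noncoding RNA is often made from the copy on which the neighbouring protein-coding genes are silent. Many of these genes are abundant in embryonic tissue and placenta and decline after birth, and the paternally expressed ones often promote growth while the maternally expressed ones often restrain it. Neither the parental copy that was transcribed nor DNA methylation was measured in these data.

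In the tumors, 5 of the 8 genes were higher (H19, Rian, Meg3, Plagl1 and Mest), 1 was lower (Ndn) and 2 were not called (Peg3 and Grb10). DEGs had to pass both an adjusted p of 0.05 (limma on log2(CPM + 0.5), Benjamini-Hochberg adjustment over all 15280 genes) and a log2 fold change of 1 in either direction. Of all genes, 28.2% were called, 14.5% higher and 13.7% lower. The tissues did not overlap for 7 of the 8 genes, 5 with all tumors above and 2 with all tumors below, beside 54.0% of all genes. The median log2 fold change was 1.54 over the 8 genes and -0.0028 over all genes. With 3 tumors against 3 glands an exact permutation test of a single gene cannot give a two-sided p under 0.1, so the tests rest on the fit across all genes.

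**Figure D1:**
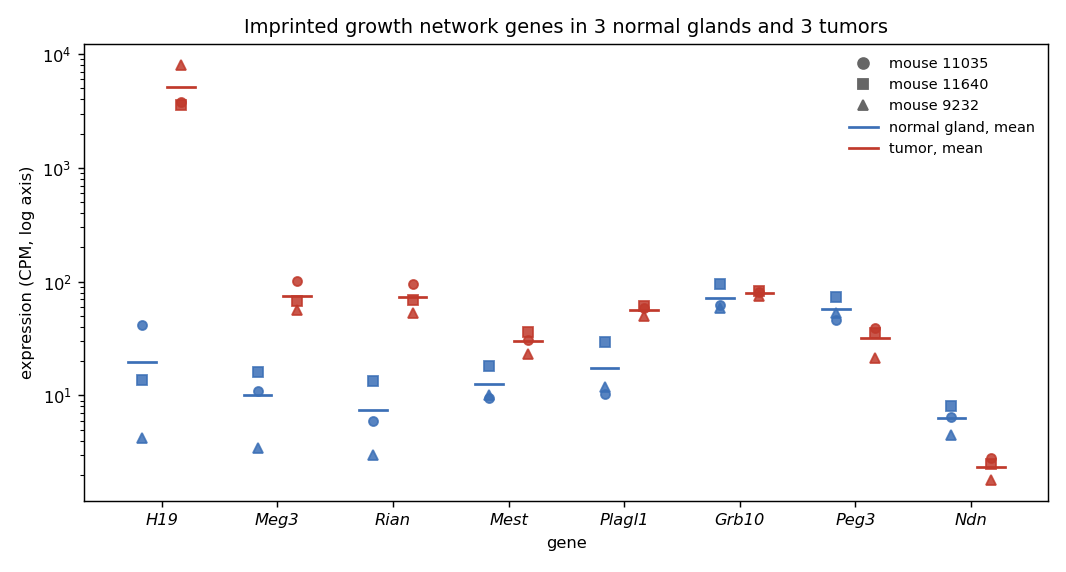
Expression of the 8 imprinted growth network genes in CPM on a log axis, with glands in blue, tumors in red, 1 marker shape per mouse and a bar at each tissue mean (n = 3). H19 was at 4.24 to 41.5 CPM in the glands and at 3554 to 8086 CPM in the tumors, while the tissues overlapped for Grb10.

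The labels were checked against the expression of known genes. Krt5, the keratin whose promoter drives the transgene, was at 9.96, 27.6 and 36.1 CPM in the glands and at 913, 989 and 1055 CPM in the tumors. Atf3 was at 4.47, 8.09 and 22.6 CPM in the glands and at 13.4, 18.3 and 19.3 CPM in the tumors and was not called. The milk protein gene Csn2 stood apart in gland M9232, at 14121 CPM against 506 and 670 CPM in the other glands. Within a tissue every pair of libraries differed by more than sampling noise (lowest chi-square per degree of freedom 12.4).

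Several of the network transcripts host miRNAs, as does Igf2, the neighbour of H19. RefSeq gave 13 mature miRNAs whose hairpin lies in H19, Igf2, Meg3 or Rian on mm9. Mest hosts miR-335, whose 2 mature miRNAs were not checked against the mm9 sequence and are not printed. Examples are shown with the seed (bases 2 to 8) in capitals, both arms for H19 and 1 arm of each hairpin shown for the other hosts. The other arms of those hairpins, miR-1906 in Meg3 and miR-1188 in Rian are not printed. No seed was shared with another miRNA of these hosts. The level of the host transcript is given below, and the levels of the mature miRNAs were not analysed here.
mmu-miR-675-5p, in an exon of H19: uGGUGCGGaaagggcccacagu
mmu-miR-675-3p, in an exon of H19: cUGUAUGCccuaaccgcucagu
mmu-miR-483-3p, within Igf2: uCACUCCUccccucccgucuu
mmu-miR-770-5p, in an exon of Meg3: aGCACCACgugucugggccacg
mmu-miR-370-3p, within Rian: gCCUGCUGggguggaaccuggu
mmu-miR-341-3p, within Rian: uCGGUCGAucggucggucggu

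H19 is a maternally expressed long noncoding RNA, and it lies on the minus strand at chr7:149761434-149764048 of mm9. It was at 41.5, 13.5 and 4.24 CPM in glands M11035, M11640 and M9232 and at 3794, 3554 and 8086 CPM in tumors T11035, T11640 and T9232. Every tumor was far above every gland, tumor T9232 was the highest and the gland of the same mouse, M9232, was the lowest. The log2 fold change was 8.41 (SE 0.68, 95% interval 6.85 to 9.96, adjusted p = 3.57e-05, limma), the tenth largest rise of the table. The difference within a mouse was 6.50, 7.98 and 10.74 on the log2 scale for pairs M11035 and T11035, M11640 and T11640, and M9232 and T9232. By mean CPM over the tumors, H19 ranked 4 among all genes.

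The glands spread from 4.24 to 41.5 CPM in H19, and several lists of cell type markers also ordered them. The summed CPM of 10 skeletal muscle markers was 4459, 1695 and 13.4 in glands M11035, M11640 and M9232, the same order as H19, and 12.3 to 24.7 in the tumors. The reverse order held for epithelial (283, 388 and 621 CPM), pericyte and smooth muscle (413, 610 and 640 CPM) and macrophage markers (288, 733 and 942 CPM). With 3 glands few orders are possible, so these orders are a description. Skeletal muscle is a tissue in which H19 is known to stay expressed after birth. In the tumors H19 was at 3554 to 8086 CPM. The part of muscle RNA in the level of H19 was not tested in either tissue.

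H19 shares its domain with Igf2, a paternally expressed growth factor that signals through the IGF and insulin receptors and is taken up by Igf2r. Igf2 (chr7:149836673-149852721, minus strand, mm9) was at 8.34, 7.10 and 6.16 CPM in the glands and at 1739, 2447 and 4094 CPM in the tumors. The glands lay close together and all tumors were above them. The log2 fold change was 8.41 (SE 0.29, adjusted p = 7.18e-07, limma), next after H19 in the order of rises. Per kilobase of exon, the ratio of H19 to Igf2 was 11.5, 4.42 and 1.60 in the glands and 5.05, 3.36 and 4.57 in the tumors, in the same order of mice. The ranges of this ratio overlapped between the tissues. Igf2as, antisense to Igf2, was at 0 in the 3 glands and at 4.84, 5.64 and 9.89 CPM in the tumors, at least 13.4-fold higher against the floor of 3 fragments per library. Its exons share 98 bp with those of Igf2, and without strand in the counting the reads there cannot be told apart. Igf2as (chr7:149845598-149856261, plus strand, mm9) also starts within the span of Igf2. Reads of unspliced Igf2 could there be counted on Igf2as, and their part was not tested.

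The control region between H19 and Igf2 is known to carry binding sites of CTCF, an insulator protein that binds the unmethylated maternal copy. The 6000 bp upstream of H19 in mm9 were searched on both strands for GGNGGCAG, a core found in CTCF sites, and 8 matches were found. On chromosome 7 such a window held 1.55 matches on average, 66.2% of windows held at least 1, and 0.598% held 8 or more. All 8 are shown in 30 bases with the core in capitals, ordered by distance from the start of H19. The control region lies upstream of H19 and is known as the switch of H19 and Igf2, the imprinted genes listed here that rose most. Its bounds were not marked in the window searched, so a match need not lie in it. A match is a description of the sequence and not a bound site.
H19 upstream match 1, chr7:149765335-149765364: ttcactggtgtGGTGGCAGttggtctctgt
H19 upstream match 2, chr7:149766203-149766232: cgatgccgcgtGGTGGCAGtacaatactac
H19 upstream match 3, chr7:149766658-149766687: tgctaccgcgcGGTGGCAGcatactcctat
H19 upstream match 4, chr7:149767684-149767713: ggttgccgcacGGCGGCAGtgaagtctcgt
H19 upstream match 5, chr7:149767803-149767832: aatgccactagGGGGGCAGgacacatgcat
H19 upstream match 6, chr7:149767928-149767957: agttgccgcgtGGTGGCAGcaaaatcgatt
H19 upstream match 7, chr7:149769068-149769097: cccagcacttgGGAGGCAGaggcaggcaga
H19 upstream match 8, chr7:149769924-149769953: tgtcccatctaGGAGGCAGctatgtttgtg

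Meg3 and Rian are maternally expressed long noncoding RNAs of the domain on chromosome 12 that also holds Dlk1. Meg3 (chr12:110779211-110809936, plus strand, mm9) was at 10.98, 16.0 and 3.42 CPM in the glands and at 101, 67.2 and 56.3 CPM in the tumors. The tissues did not overlap, and the log2 fold change was 3.01 (SE 0.48, adjusted p = 0.00139, limma). Rian (chr12:110842155-110899919, plus strand, mm9), which hosts small nucleolar RNAs and miRNAs, was at 5.90, 13.4 and 3.01 CPM in the glands and at 95.6, 69.6 and 52.9 CPM in the tumors. Its tissues did not overlap either, and the log2 fold change was 3.39 (SE 0.45, adjusted p = 0.00053, limma). For both RNAs M11640 was the highest gland and T11035 the highest tumor. Per kilobase of exon, the ratio of Meg3 to Rian was 0.844, 0.543 and 0.515 in the glands and 0.480, 0.438 and 0.483 in the tumors. Exons of Meg3 share 1228 of their 18089 bp with Gm17639 on the opposite strand, where reads cannot be told apart without strand.

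Of the other genes listed in this domain, Dio3, Rtl1 and Mirg were in the table and were low in the glands. Dio3, a paternally expressed deiodinase that inactivates thyroid hormone, had 1 fragment in the 3 glands and 62 in the 3 tumors (ratio of CPM 57.6, 95% counting interval 9.96 to 2312). Rtl1, a paternally expressed retrotransposon-derived gene needed in the placenta, had 5 and 37 fragments (ratio 6.88, interval 2.70 to 22.4). Mirg, a maternally expressed miRNA host, had 2 and 24 fragments (ratio 11.2, interval 2.77 to 97.3). Dio3, Rtl1 and Mirg were called higher. Exons of Rtl1 share bases with Mir127, Mir136, Mir431, Mir432, Mir433 and Mir434 on the opposite strand, where reads cannot be told apart without strand. Genes known as maternally expressed and Dio3, known as paternally expressed, were both higher, while the strand of the Rtl1 fragments is not known. The call of Mirg was lost with the mouse as a replicate block (adjusted p = 0.0621, limma) and with a pseudocount of 1 (log2 fold change 0.897). It was also lost without any 1 of 5 libraries (each but tumor T11035). The call held under 6 of 13 alternatives, over which the log2 fold change ran from 0.90 to 3.35.

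The promoters were searched for the motifs of the family to which ATF3 belongs, since ATF3 is known to bind the cAMP response element (CRE, TGACGTCA) and the related AP-1 site (TGANTCA). RefSeq windows (GRCm38.p6) matched 7 of the 8 genes with 11 start sites, and H19 had no entry. In the 250 bases before the start, CRE was found in 2 of the 11 windows, those of Meg3 and Peg3, and AP-1 in 0. Both motifs read the same on either strand. Of the windows of all genes tested, 2.35% held CRE and 5.47% held AP-1. The upstream bases of both windows are shown with CRE in capitals, 57 bases before the start of Meg3 (window chr12:109540746-109541045, plus strand) and 178 before that of Peg3 (window chr7:6730370-6730669, minus strand). Binding was not measured, and Meg3 rose while Peg3 was not called.
Meg3 upstream: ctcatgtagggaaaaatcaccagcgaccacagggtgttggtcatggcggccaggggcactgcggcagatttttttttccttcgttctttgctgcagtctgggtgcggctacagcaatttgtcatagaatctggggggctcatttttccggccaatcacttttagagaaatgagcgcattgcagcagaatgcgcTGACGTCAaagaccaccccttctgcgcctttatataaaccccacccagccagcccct
Peg3 upstream: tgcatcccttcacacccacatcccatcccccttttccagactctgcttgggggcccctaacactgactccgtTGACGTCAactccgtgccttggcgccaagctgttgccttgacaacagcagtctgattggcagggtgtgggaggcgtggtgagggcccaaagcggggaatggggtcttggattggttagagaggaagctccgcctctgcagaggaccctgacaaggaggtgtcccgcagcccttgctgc

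Plagl1 and Mest are paternally expressed and rose less than the noncoding RNAs. Plagl1 (chr10:12810497-12851500, plus strand, mm9), a zinc finger transcription factor known to regulate other imprinted genes, was at 10.4, 29.7 and 11.9 CPM in the glands and at 59.2, 60.5 and 50.2 CPM in the tumors. The tumors lay close together above all glands, of which M11640 was the highest. The log2 fold change was 1.83 (SE 0.35, adjusted p = 0.00366, limma). Mest (chr6:30673547-30698457, plus strand, mm9), a hydrolase-like protein linked to growth and fat mass, was at 9.56, 18.2 and 10.1 CPM in the glands and at 30.5, 36.2 and 23.2 CPM in the tumors. All tumors were above all glands, and the log2 fold change was 1.25 (SE 0.28, adjusted p = 0.00772, limma). Mest shares 904 of its 3937 exon bp with Copg2 on the opposite strand, which was at 47.8, 52.2 and 60.1 CPM in the glands and at 69.4, 68.3 and 67.0 CPM in the tumors and was not called.

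Ndn and Peg3 are paternally expressed genes with lower values in the tumors. Ndn (chr7:69493163-69494814, plus strand, mm9) encodes necdin, a growth suppressor of neurons and other cells that have left the cell cycle. It was at 6.51, 8.09 and 4.51 CPM in the glands and at 2.79, 2.49 and 1.80 CPM in the tumors, with all tumors below all glands. Its log2 fold change was -1.25 (SE 0.30, adjusted p = 0.0102, limma). Peg3 (chr7:6656603-6683132, minus strand, mm9), a zinc finger protein, was at 46.2, 72.7 and 52.8 CPM in the glands and at 39.3, 35.4 and 21.4 CPM in the tumors. All tumors were again below all glands, but the log2 fold change of -0.85 (SE 0.26, adjusted p = 0.0317, limma) did not reach the fold threshold. Without tumor T11035 it was -1.01 and Peg3 was called.

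Grb10, an adaptor that binds the insulin and IGF receptors and restrains growth, lies at chr11:11830511-11938686 on the minus strand of mm9. It is expressed from the maternal copy outside the brain. It was at 62.2, 95.6 and 58.7 CPM in the glands and at 80.4, 82.2 and 74.0 CPM in the tumors. The tumors lay within the range of the glands, and the log2 fold change was 0.16 (SE 0.20, 95% interval -0.30 to 0.62, adjusted p = 0.555, limma). A rise of more than 0.62 on the log2 scale lay outside this interval. Its neighbour Cobl, an actin nucleator, was lower, at 10.2, 13.7 and 8.62 CPM in the glands and at 3.54, 2.88 and 2.70 CPM in the tumors (log2 fold change -1.66, SE 0.26, adjusted p = 0.00112, limma).

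**Figure D2:**
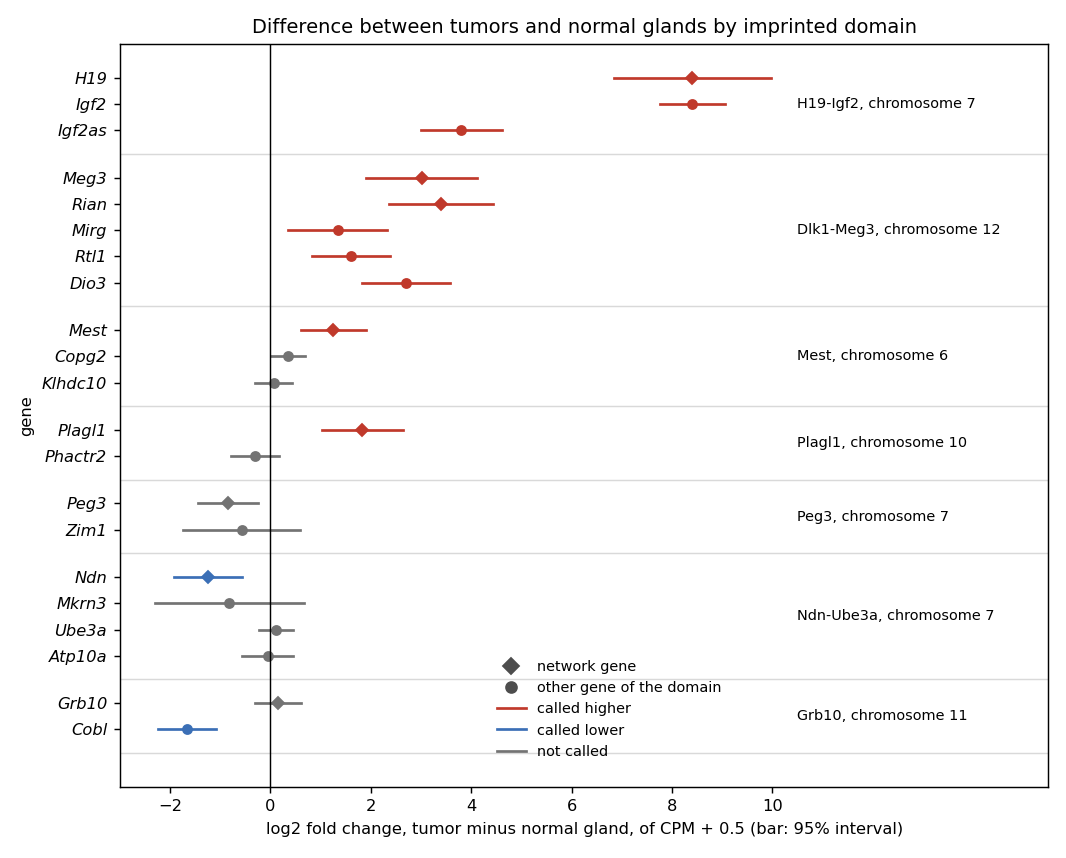
Log2 fold change of tumor against normal gland on the log2(CPM + 0.5) scale with 95% intervals, by chromosomal domain (n = 3 for each tissue), with diamonds for network genes and circles for other genes of the domain. H19 and Igf2 were both at 8.41, Ndn and Cobl were called lower, and the point of Igf2as, at 0 in every gland, depends on the pseudocount.

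Of 28 listed neighbours in the domains of the network genes, 13 were in the table and the other 15 were not analysed here. Of the 13, 5 were called higher (Igf2, Igf2as, Dio3, Rtl1 and Mirg), 1 lower (Cobl) and 7 were not called, so that 46.2% were called beside 28.2% of all genes. Those that were not called were Copg2 and Klhdc10 beside Mest, Phactr2 beside Plagl1, Zim1 beside Peg3, and Mkrn3, Ube3a and Atp10a in the domain of Ndn. Their log2 fold changes ran from -0.82 for Mkrn3 to 0.36 for Copg2. The 5 higher neighbours all lay in the domains of H19 and of Meg3 and Rian.

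Levels of different genes were compared as mean CPM per kilobase of exon. Exon lengths came from GENCODE and fragments were counted on RefSeq genes, so the lengths may differ from the bases counted. Such a mismatch may change the order between genes and the size of the ratios per kilobase. It does not change how the same gene or ratio compares between libraries. In the glands the order was H19 (8.33), Grb10 (7.88), Peg3 (4.30), Ndn (3.86), Mest (3.20), Plagl1 (2.38), Rian (0.906) and Meg3 (0.561). Neighbours in this order overlapped in their libraries, apart from Peg3, which was below Grb10 in all glands. H19 came first through gland M11035 (17.5), the gland with the highest skeletal muscle, B cell and T cell markers. H19 was below Grb10 in M11640 (5.71 against 10.4) and in M9232 (1.79 against 6.40). Without M11035 the mean was 3.75 for H19 and 8.42 for Grb10, an alternative chosen after seeing the data. In the tumors the order was H19 (2169), Rian (8.87), Grb10 (8.61), Plagl1 (7.77), Mest (7.61), Meg3 (4.14), Peg3 (2.41) and Ndn (1.43). There Rian lay below H19, Meg3 below Mest and Peg3 below Meg3 without overlap, and the other neighbours overlapped.

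**Figure D3:**
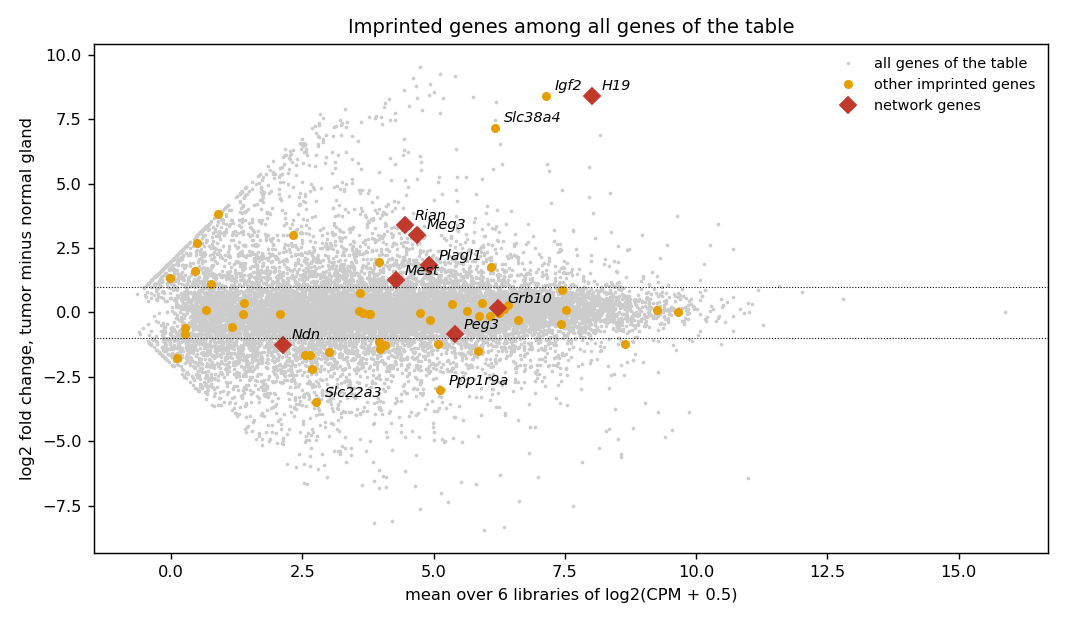
Log2 fold change of tumor against normal gland on the y axis and mean log2(CPM + 0.5) over the 6 libraries on the x axis, with all 15280 genes in grey, network genes as red diamonds and other imprinted genes in orange. Dotted lines mark the fold threshold of 1 in each direction, and H19 and Igf2 lie at 8.41, above Slc38a4 at 7.17.

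Imprinted genes of other domains were compared with the network genes. Of 42 listed, 38 were in the table, 4 were called higher, 12 lower and 22 were not called, with a median log2 fold change of -0.06. The share called was 42.1%, beside 28.2% of all genes. The largest rise was that of Slc38a4, a paternally expressed amino acid transporter, at 6.71, 5.95 and 4.10 CPM in the glands and 742, 1007 and 851 CPM in the tumors (log2 fold change 7.17, SE 0.21, adjusted p = 4.30e-07, limma). Tfpi2 (3.00), Peg10 (1.97) and Gatm (1.76) were also called higher, although the tissues overlapped for Peg10. The call of Peg10 held under 9 of 14 alternatives and was lost without M11035, M9232, T11640 or T9232 (adjusted p = 0.0697, 0.0725, 0.113 and 0.0712, limma) and with no mean-variance trend (adjusted p = 0.0520, limma). The largest falls were those of the organic cation transporter gene Slc22a3 (-3.48), Ppp1r9a (-3.03), Tspan32 (-2.19) and Slc22a2 (-1.76). Slc22a2 averaged under 1 CPM, and its log2 fold change depended on the pseudocount (-3.15 at 0.1 and -1.19 at 1). Igf2r, the receptor that clears Igf2, was chosen after its values were seen and was at 107, 142 and 138 CPM in the glands and 176, 256 and 294 CPM in the tumors. It was not called (log2 fold change 0.88, adjusted p = 0.0101, limma), and without tumor T11035 it was called at 1.10. Per kilobase, the ratio of Igf2 to Igf2r was 0.0768 to 0.133 in the glands and 16.4 to 23.9 in the tumors.

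Among 15 insulin and IGF receptors, adaptors and partners of the network products, 4 were called higher, 1 lower and 10 were not called. The share called was 33.3%, beside 28.2% of all genes, and the median log2 fold change was 0.32. Igf2bp1, an RNA-binding protein that binds Igf2 and H19 transcripts, had 4 fragments in the 3 glands and 1722 in the 3 tumors (ratio of CPM 400.0, 95% counting interval 156 to 1470). Igf2bp2 was at 1.42, 2.31 and 2.87 CPM in the glands and at 71.3, 63.8 and 73.7 CPM in the tumors (log2 fold change 4.73, SE 0.24, adjusted p = 3.83e-06, limma). Notch1 (1.56) and Wt1 (2.20) were the other genes called higher. Irs1, an adaptor of the insulin and IGF1 receptors, was lower (log2 fold change -1.14, adjusted p = 0.0180, limma), and it lost its call without gland M11640, tumor T11640 or tumor T9232. The receptors Igf1r (0.32) and Insr (-0.75) were not called.

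Of 21 regulators of imprinted methylation and insulation, 4 were called higher, 1 lower and 16 were not called. The share called was 23.8%, below the 28.2% of all genes, and the median log2 fold change was 0.38. Uhrf1, which brings Dnmt1 to replicating DNA, was at 6.71, 2.31 and 7.66 CPM in the glands and at 26.2, 21.0 and 11.2 CPM in the tumors. Zfp57, a zinc finger protein that protects imprints (1.54), Dppa3 (1.72) and Dnmt3l (1.36) were also higher, and Tet1, which oxidises methylated cytosine, was lower (-1.03). Without tumor T11640, 2 regulators were called higher. Uhrf1 lost its call without T11035 or T11640 (adjusted p = 0.0564 and 0.0576, limma). Dnmt3l lost its call without M11035, T11640 or T9232 (adjusted p = 0.0708, 0.105 and 0.0613, limma) and with DESeq2 (adjusted p = 0.0506). Tet1 lost its call without M11640 or T9232, where its log2 fold change was -0.95 and -0.88. The maintenance methyltransferase Dnmt1 (0.46) and Ctcf (-0.19) were not called.

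Markers of cell types differed between the tissues, and in bulk samples fewer cells of a type and less RNA per cell cannot be told apart. The 12 adipocyte markers were all lower, with a summed level of 3638 to 7034 CPM in the glands and 171 to 231 CPM in the tumors. Of 10 epithelial markers 9 were higher (283 to 621 CPM summed in the glands, 3991 to 4959 CPM in the tumors), and of 10 fibroblast markers 5 were higher (1215 to 4216 and 12307 to 14056 CPM). All 6 B cell markers (287 to 699 and 8.54 to 10.4 CPM) and all 6 T cell markers (166 to 421 and 25.3 to 41.1 CPM) were lower. Of 8 adipose stromal markers 2 were lower, of 10 endothelial markers 3, of 10 skeletal muscle markers 3, of 8 nerve markers 3 with 1 higher, and of 9 pericyte and smooth muscle markers 2 with 2 higher, while 1 of 6 macrophage markers was higher. The part of these differences in the levels of the network genes was not tested.

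**Figure D4:**
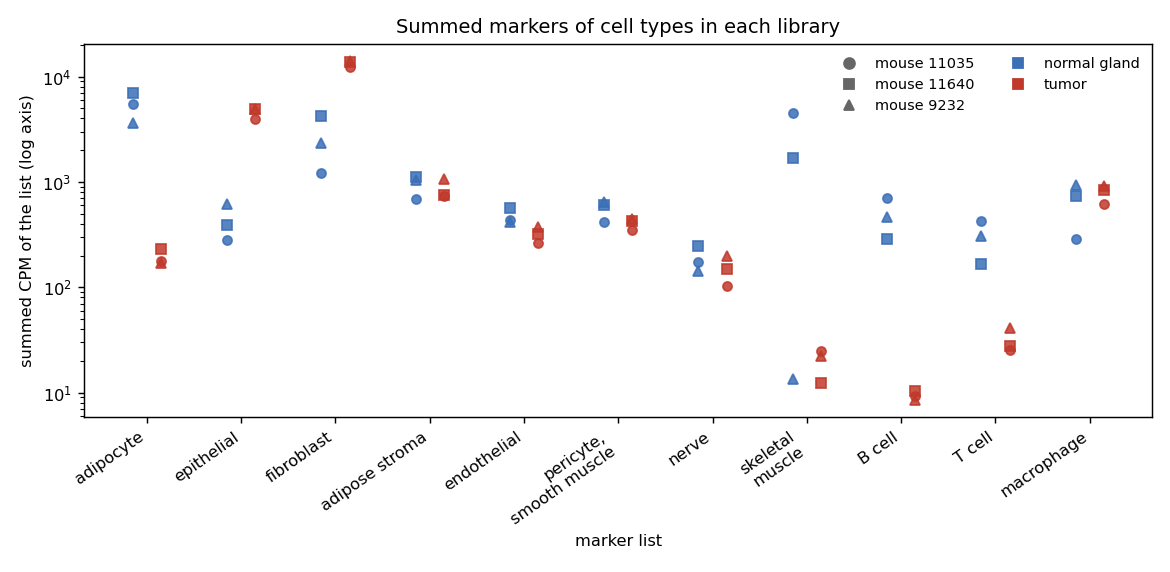
Summed CPM of each list of cell type markers on a log axis, with glands in blue, tumors in red and 1 marker shape per mouse (n = 3). Adipocyte markers lay at 3638 to 7034 CPM in the glands and 171 to 231 CPM in the tumors, and skeletal muscle markers spread from 13.4 to 4459 CPM among the glands.

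Among the glands, the 7 network genes other than H19 were each highest in gland M11640. The share of all genes that were highest in M11640 was not counted, so this is a description of the libraries. Among the glands, M11640 also had the highest sums of adipocyte (7034 CPM), fibroblast (4216 CPM), adipose stromal (1116 CPM), endothelial (564 CPM) and nerve markers (244 CPM). The other sums peaked elsewhere. Epithelial (621 CPM), pericyte and smooth muscle (640 CPM) and macrophage markers (942 CPM) were highest in M9232. B cell (699 CPM), T cell (421 CPM) and skeletal muscle markers (4459 CPM) were highest in M11035.

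The profiles most like each network gene were ranked by Pearson's r of log2(CPM + 0.5) over the 6 libraries, among genes that averaged 1 CPM or more. Each r includes the step between the tissues, and the libraries of a mouse share the animal, so they are given as a description. Closest to H19 were Ch25h (0.999) and Uck2 (0.998). Closest to Meg3 were Gm3383 (0.997) and Nes (0.992), and Rian came next (0.990). Closest to Rian were Ccdc136 (0.996) and Lypd6b (0.995), to Mest Pign (0.998) and Dock1 (0.994), and to Plagl1 Sorcs2 and Col3a1 (both 0.998). Mest and Plagl1 followed each other with r = 0.982. Closest to Ndn were Atp9a (0.9997) and Elmod3 (0.998), to Peg3 Tmem126a (0.998) and P2rx3 (0.995), and to Grb10 Rab11fip3 (0.970) and Tmem17 (0.964).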

How the data were processed

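The libraries were 3 mammary tumors and 3 normal, adjacent mammary glands, 1 of each from every mouse. According to the paper's methods and the submitters' processing notes, the authors ran CASAVA 1.8.2, mapped read pairs to mm9 with TopHat2 2.0.3, counted fragments on RefSeq genes with HTSeq 0.5.3p9 and removed genes under 10 fragments. Whether counting used strand was not given in the sources used here. The authors deposited a normalized signal per gene, the CPM on the effective library size of edgeR 3.6.1. Every value was a whole multiple of 1 fragment within a tolerance of 0.001, so the fragments were recovered. The unit was therefore recorded as a signal, since the columns do not add up to equal totals, and it takes the same test.

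Depth was 4750989 to 7372155 fragments in the glands and 5116883 to 7806908 in the tumors, and 3 fragments corresponded to 0.393 to 0.610 CPM. Intervals on fragments cover counting error only.

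log2(CPM + 0.5) was tested with limma 3.58.1 in R 4.3.3 (mean-variance trend, no block), with Benjamini-Hochberg adjustment over all 15280 genes. DEGs passed an adjusted p of 0.05 and a log2 fold change of 1 in either direction. Fold changes on this scale understate the change of low genes. The script was tested on simulated data. Alternatives were pseudocounts of 0.1 and 1, a filter at a mean of 1 CPM, the plain library size, edgeR 4.0.16 and DESeq2 1.42.0 on recovered fragments, no trend, a replicate block, the adjusted p alone and leaving out each library.

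Tumor and gland with 1 number are from 1 animal, which pairs them. Their deviations from the tissue means correlated across 14712 genes with r = 0.107, 0.151 and 0.0168 for the mice of T11035, T11640 and T9232. Genes are not independent replicates.

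The members and the gene lists were chosen with earlier results of these data known. The genes named are the members, their domain neighbours, up to 4 called genes per direction of each list of other imprinted genes, imprinting regulators and growth receptor partners, the 2 closest profiles of each member, markers of cell types and checks of the labels. Positions and exon lengths are from GENCODE vM1 on mm9. miRNA and promoter sequences are from RefSeq (GRCm38.p6), and the H19 upstream sequence is from the mm9 genome. The miRNA microarray and knockdown experiments were not analysed here.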

Additional observations from a re-analysis of the deposited data

How the results depend on the processing

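The 5 network genes called higher in tumors and Ndn, called lower, were called under all 14 alternatives run for single genes. Peg3 was called lower without tumor T11035 (log2 fold change -1.01). With the adjusted p alone, 2 network genes were lower, 7 regulators of imprinting were higher and 2 growth receptor partners were lower. Leaving out each library in turn gave 1 to 2 network genes called lower, 2 to 4 regulators called higher, 0 to 1 regulators called lower and 0 to 1 growth receptor partners called lower. It also turned the sign of 2 genes that were not called, with log2 fold changes from -0.049 (without M9232) to 0.13 for Klhdc10 and from -0.22 to 0.067 (without M11640) for Atp10a, which was 0.01 without T9232. The cause of these changes was not tested, but each of these fits had fewer samples or 1 threshold fewer. With the replicate block, which is the paired fit over the 3 mice, 5 network genes were called higher and 1 lower, and among the genes named from the lists Mirg alone lost its call (adjusted p = 0.0621, limma). Depth limits Rtl1, Dio3, Mirg, Igf2as, Igf2bp1 and Wt1, which had 5 fragments or fewer in the 3 glands together. It also limits Slc22a2, which was low in the tumors and averaged under 1 CPM.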
